A study of Mus musculus with 14 samples.

Results

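The 9 genes described here make or load the fast transmitters of hindbrain neurons: Slc17a6, Slc17a7, Slc17a8, Gad1, Gad2, Slc32a1, Slc6a5, Slc18a3 and Chat. They were chosen by function, as a list of names, with earlier results of these data known, and each matched 1 of the 31054 genes in the count matrices. Single-cell RNA-seq was done on TdTomato-positive, DAPI-negative sorted cells of the Atoh1 lineage from mice on the C57BL/6J background. Control embryos were Atoh1 Cre/+; Rosa lsl-tdTomato/+ and mutant embryos were Atoh1 Cre/S193A; Rosa lsl-tdTomato/+, in which the serine at residue 193 is replaced by alanine. The Cre knock-in takes the place of 1 Atoh1 copy, so the controls carried a single wild-type copy and the mutants a single S193A copy, and both genotypes carried the reporter. At E14.5 and at E18.5 the whole hindbrain was taken from 3 control and 3 mutant embryos, each mutant being collected with a littermate control, and equal replicate numbers are read here as littermates. At P5 the pontine nuclei (PN) were dissected from control pups and pooled into 2 libraries, so no mutant was measured at that age and no genotype test was possible. Differences between P5 cell states are described and were not tested.

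Slc17a6, Slc17a7 and Slc17a8 encode the vesicular glutamate transporters VGLUT2, VGLUT1 and VGLUT3, and a neuron that carries any of them can release glutamate. Gad1 and Gad2 encode the enzymes GAD67 and GAD65, which make GABA from glutamate, and Slc32a1 encodes the vesicular transporter that both GABA and glycine need. Slc6a5 encodes the plasma membrane glycine transporter of glycinergic neurons. Chat makes acetylcholine and Slc18a3 loads it into vesicles. Atoh1 is the transcription factor of the rhombic lip, and the neurons that derive from it, among them the PN neurons and the cerebellar granule cells, are known as mostly glutamatergic.

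The 14 libraries held between 108239001 and 236964126 UMIs each and 80250 cells were kept, between 3248 and 8726 per library, with a median of 12010.5 to 20924 UMIs per kept cell. Levels are given as CPM, the UMIs of a gene per 1000000 UMIs of the cells summed, and shares of cells with a UMI were taken after each cell was thinned to 5000 UMIs. These are 3′ counts that were not scaled by gene length, so levels are compared between samples and cell groups and not between genes. Atoh1 was at 55.4 to 137 CPM in E14.5 control and 86.2 to 143 CPM in E14.5 mutant libraries, the Tubb3 and Barhl1 transcripts of neurons and of this lineage were present in every library, and the leukocyte gene Ptprc stayed at or under 0.647 CPM except at P5, where it was at 8.17 and 8.68 CPM. Counts cannot show the S193A substitution itself. The second E14.5 littermate pair stood apart, with 3 control and 1 mutant cells in the migrating neuron-1-like state where the other 4 libraries held 224 to 317. The 91 pairs of libraries shared between 3 and 22 cell barcodes.

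Of the 9 genes, 2 form a single locus. Slc18a3 (chr14:32462438-32464850, minus strand, mm10) lies wholly inside an intron of Chat (chr14:32408203-32465989, minus strand) in 4 of 8 Chat transcripts of GENCODE M21, with 0 exon bases shared. Slc17a6 (chr7:51622006-51671119), Slc17a7 (chr7:45163949-45176142) and Slc6a5 (chr7:49910146-49963856) share a chromosome and a strand, as do Gad1 (chr2:70553072-70602014), Gad2 (chr2:22622205-22693874) and Slc32a1 (chr2:158610767-158615748), while Slc17a8 is on the minus strand at chr10:89574020-89621253. Atoh1 binds E-boxes, and CAGCTG and CAGATG (with its reverse complement CATCTG, so both strands were read) were searched in the 250 bases before each RefSeq start on GRCm38.p6. Of the 12 windows of the 9 genes, 5 held a match, in a background of 25.5% of all 32851 windows. CAGCTG alone was in 13% of all windows and in 1 window of these genes, and CAGATG or CATCTG was in 14.4% of all windows and in 4 of theirs. The 5 matches are shown because they include Gad2, Slc17a6 and Slc17a8, the genes on which the genotype results turn, with the E-box in capitals and 10 bases on each side:
Slc17a6, chr7:51624422-51624447, plus strand, intronic in GENCODE M21: ctgagtggtaCAGATGgccctgtggg
Slc17a8, chr10:89599842-89599867, minus strand, intronic: tcagtttcctCATCTGagaaatgaaa
Gad2, chr2:22622241-22622266, plus strand, exonic: ccctcccccgCATCTGactcgcacct
Slc6a5, chr7:49911599-49911624, plus strand, intronic: ggaatgtgtgCATCTGtgtatgcaga
Chat, chr14:32466044-32466069, minus strand, upstream of the gene: cctccaatctCAGCTGactggcatcc

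The matches began 205, 42, 76, 91 and 150 bases before the RefSeq start, in that order. For Slc17a6, Slc17a8 and Slc6a5 the match lay in a window before a start inside the gene. The window at the 5′ end of each of these genes held no match. The window before Slc18a3 held none of these letters. It is shown because this stretch of the first Chat intron is the upstream sequence of the transporter, whose count and that of Chat varied together across cell groups:
Slc18a3, chr14:32464851-32465100, minus strand: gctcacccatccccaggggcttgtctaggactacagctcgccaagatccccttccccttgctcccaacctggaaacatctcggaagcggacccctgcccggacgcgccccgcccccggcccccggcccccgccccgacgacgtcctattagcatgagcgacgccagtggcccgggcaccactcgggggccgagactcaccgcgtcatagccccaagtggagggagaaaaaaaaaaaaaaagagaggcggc

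Slc17a6 was present in every library. At E14.5 it was at 120.0, 159 and 131 CPM in control libraries 1, 2 and 3 and at 93.5, 141 and 100.4 CPM in the mutant libraries of the same numbers. At E18.5 it was at 98.5, 89.0 and 103.5 CPM in the controls and at 83.2, 58.5 and 91.0 CPM in the mutants. The P5 PN libraries held 208 and 244 CPM. The genotypes overlapped at E14.5 and at E18.5, although the mutant was the lower of each littermate pair at both ages. Slc17a7 was low at E14.5, with 0.992 to 2.56 CPM in controls and 0.404 to 1.5 CPM in mutants. It was at 8.61 to 10.0 CPM in E18.5 controls, at 9.14 to 10.1 CPM in E18.5 mutants, and at 31.8 and 28.6 CPM at P5. Slc17a8 ran the other way with age. It was at 2.39, 2.82 and 2.35 CPM in E14.5 controls and at 6.58, 4.57 and 4.75 CPM in E14.5 mutants, and no library of the later stages exceeded 0.663 CPM.

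Gad2 was at 15.8, 16.2 and 7.83 CPM in E14.5 controls and 20.7, 18.8 and 15.8 CPM in E14.5 mutants, and at 8.0, 8.98 and 12.7 CPM in E18.5 controls and 13.5, 9.98 and 18.2 CPM in E18.5 mutants. The P5 libraries held 46.4 and 46.0 CPM. The other genes of inhibitory transmission did not share that P5 level. Gad1 was at 2.42 to 5.34 CPM in E14.5 controls, 2.09 to 5.64 CPM in E18.5 controls, and 1.29 and 1.03 CPM at P5, and Slc32a1 was at 2.73 to 5.80, at 0.596 to 2.87, and at 1.14 and 1.61 CPM. In the mutants Gad1 was at 3.19 to 5.43 CPM at E14.5 and 2.52 to 5.65 CPM at E18.5, and Slc32a1 was at 3.55 to 5.85 and 1.25 to 3.53 CPM. The mutant was the higher of all 3 littermate pairs at both ages for Gad2, Slc32a1 and Slc17a8, and for Gad1 in 3 pairs at E14.5 and 2 at E18.5. For Slc32a1 the E14.5 log2 difference was only 0.07 (SE 0.320, edgeR FDR 0.954). Signs over littermate pairs, here and elsewhere in the text, were not set against those of all genes. Nothing is read from them alone. Slc6a5 lay between 0.354 and 3.19 CPM in all 14 libraries. Slc18a3 was at 1.21 to 4.25 CPM in the 12 embryonic libraries and at 21.1 and 22.4 CPM at P5, and Chat was at 0.317 to 1.57 CPM and then at 3.74 and 3.17 CPM.

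**Figure D1:**
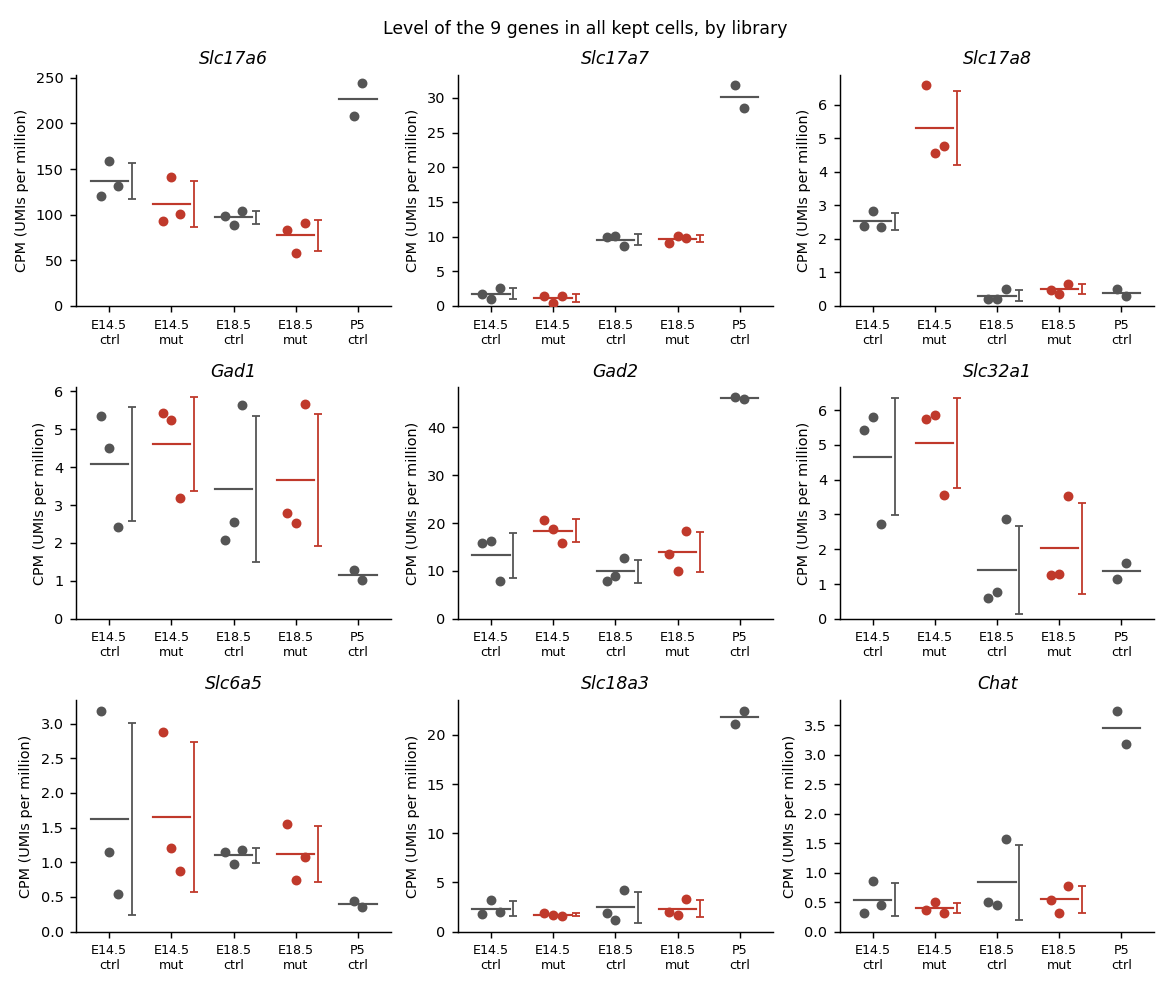
Level of each of the 9 genes in every library, in CPM over all kept cells, by stage and genotype. Each point is a library, the line is the mean and the bar the SD (n = 3 per embryonic group, 2 P5 libraries with no mutant), and the Slc17a8 points of the 3 E14.5 mutant libraries sit above those of the 3 controls.

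Between E14.5 and E18.5 the glutamate transporters changed in opposite directions in control hindbrain. Slc17a7, which granule cells use, rose by a log2 change of 2.32 (SE 0.318, edgeR quasi-likelihood FDR 0.00117, n = 3 against 3). Slc17a6 fell by 0.60 (SE 0.122, edgeR FDR 0.0058) and Slc17a8 fell by 3.16 (SE 0.354, edgeR FDR 0.000564). Slc32a1 fell by 1.81 (SE 0.577, edgeR FDR 0.0349), a call that did not hold with the Cell Ranger 5.0.1 libraries only, or without E14.5 control replicate 1 or 2 or E18.5 control replicate 1 or 2. Over all settings its log2 change was -2.80 to -1.10 and its FDR reached 0.328. The remaining members missed the test, with log2 changes of -0.51 for Gad2, -0.34 for Gad1, -0.60 for Slc6a5, 0.50 for Chat and -0.04 for Slc18a3. The 4 calls among 9 genes stand beside a background of 43.6% of 18440 genes called, 20.4% higher and 23.2% lower, so the number of calls is near that of genes at large. Stage and the day of collection cannot be told apart, and a summed level holds both the number of cells of a kind and the RNA per cell, which cannot be told apart in it either.

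Clusters were built without these 9 genes, although genes that vary with them took part in the clustering, so levels by cluster are given as descriptions. E14.5 cluster 30, E18.5 cluster 24 and P5 cluster 14 had a median depth of 0.102, 0.169 and 0.134 times that of their libraries and were left out of the orders below, as was E18.5 cluster 29 with 9 control cells. These 4 clusters were also high for several members. Among control clusters Slc17a6 reached its highest embryonic levels in E18.5 cluster 20 (led by Zfhx3, Meis2, Sst, Cck and Fxyd7) at 352, 241 and 333 CPM, in E14.5 cluster 25 (Nrgn, Zfp703, Tmem65 and Bcl11b among its leading genes) at 254, 323 and 308 CPM, and in the unipolar brush cell-like E18.5 cluster 17 at 282, 279 and 319 CPM. These 3 clusters overlapped in level. At P5 it was highest in the PN-like cluster 6 (Htr2c, Gstm1 and Prox1 among its leading genes), at 356 and 435 CPM. Slc17a7 was highest at E18.5 in cluster 13 (led by Cartpt and Nhlh1) at 48.7, 40.2 and 46.5 CPM and in cluster 19 (1500015O10Rik and Inhbb) at 41.1, 39.0 and 43.3 CPM. The mutant libraries held 43.6 to 48.3 CPM in cluster 13 and 35.1 to 44.1 CPM in cluster 19, within or next to the control range. At E14.5 the granule lineage-like cluster 12 (Ostf1 and Cadps2) had 16.2, 13.2 and 16.4 CPM. Slc17a8 was highest at E14.5 in 2 groups that are not neurons, the cycling cell-like cluster 20 (Rspo1, Wnt1, Cenpf, Htra1 and Prc1), at 48.9, 25.0 and 33.9 CPM in controls, and the roof plate or choroid-like cluster 3 (Rspo1, Dkk3 and Wnt9a), at 21.4, 15.2 and 32.0 CPM.

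The inhibitory genes shared their highest clusters at E14.5. Cluster 29, led by Tfap2a, Lhx5, Tfap2b, Fgf3 and Skor1, held 307, 345 and 180 CPM of Gad2, 125, 71.0 and 88.8 CPM of Gad1 and 193, 166 and 194 CPM of Slc32a1 in the 3 controls. The inhibitory neuron-like cluster 26, with Hoxb8, Npy and Pax2, held 155, 219 and 222 CPM of Gad2, 65.5, 51.3 and 71.8 CPM of Gad1, 81.1, 97.5 and 97.2 CPM of Slc32a1 and 48.4, 34.6 and 52.8 CPM of Slc6a5. Cluster 9, with Sncg, Gata3, Sox14 and Tcf24 among its leading genes, came next, with 183, 82.3 and 81.5 CPM of Gad2. Slc6a5 varied most between embryos in cluster 29, where controls held 74.9, 20.3 and 7.2 CPM. At E18.5 the highest Gad1 and Slc32a1 levels were in cluster 20, at 11.1, 46.6 and 70.7 CPM and at 17.9, 29.0 and 53.5 CPM, the same cluster that was highest for Slc17a6, although only 2 of its control cells had both Slc17a6 and Slc32a1 after thinning, 0.0809 times the product of the 2 shares. Its libraries differed among themselves by more than the genotypes did (mutant Gad1 44.6, 42.5 and 60.7 CPM). Gad2 was highest in another group, the PN-like E18.5 cluster 22 (Crabp1, Robo3, Ren1, Hoxb3 and Thsd7a), at 151, 109 and 165 CPM. At P5 a cluster of 75 cells (cluster 25, led by Meis2, Tshz2, Cck, Gria1 and Lamp5) held Gad1, Gad2 and Slc32a1 in both libraries, with Gad1 at 135 and 144 CPM, Gad2 at 231 and 195 CPM and Slc32a1 at 125 and 206 CPM. Slc17a6 was at 226 and 225 CPM in that cluster, mostly in other cells: after thinning 26 of 74 cells had Slc17a6, 32 had Slc32a1 and 3 had both, 0.287 times the product of the 2 shares. The oligodendrocyte lineage-like P5 cluster 10 had Gad1 at 12.2 and 10.8 CPM.

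Among clusters the cholinergic genes were at their highest at P5, in PN-like ones. In E14.5 hindbrain Slc18a3 was highest in cluster 9, at 25.2, 20.5 and 17.1 CPM in controls, and in cluster 7, at 12, 15.0 and 12.7 CPM. At E18.5 cluster 20 held 21.7, 6.75 and 19.4 CPM of Slc18a3 and 11.9, 6.07 and 5.32 CPM of Chat. In the P5 PN-like cluster 0 the pooled levels were 69.4 CPM for Slc18a3 and 12.1 CPM for Chat.

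**Figure D2:**
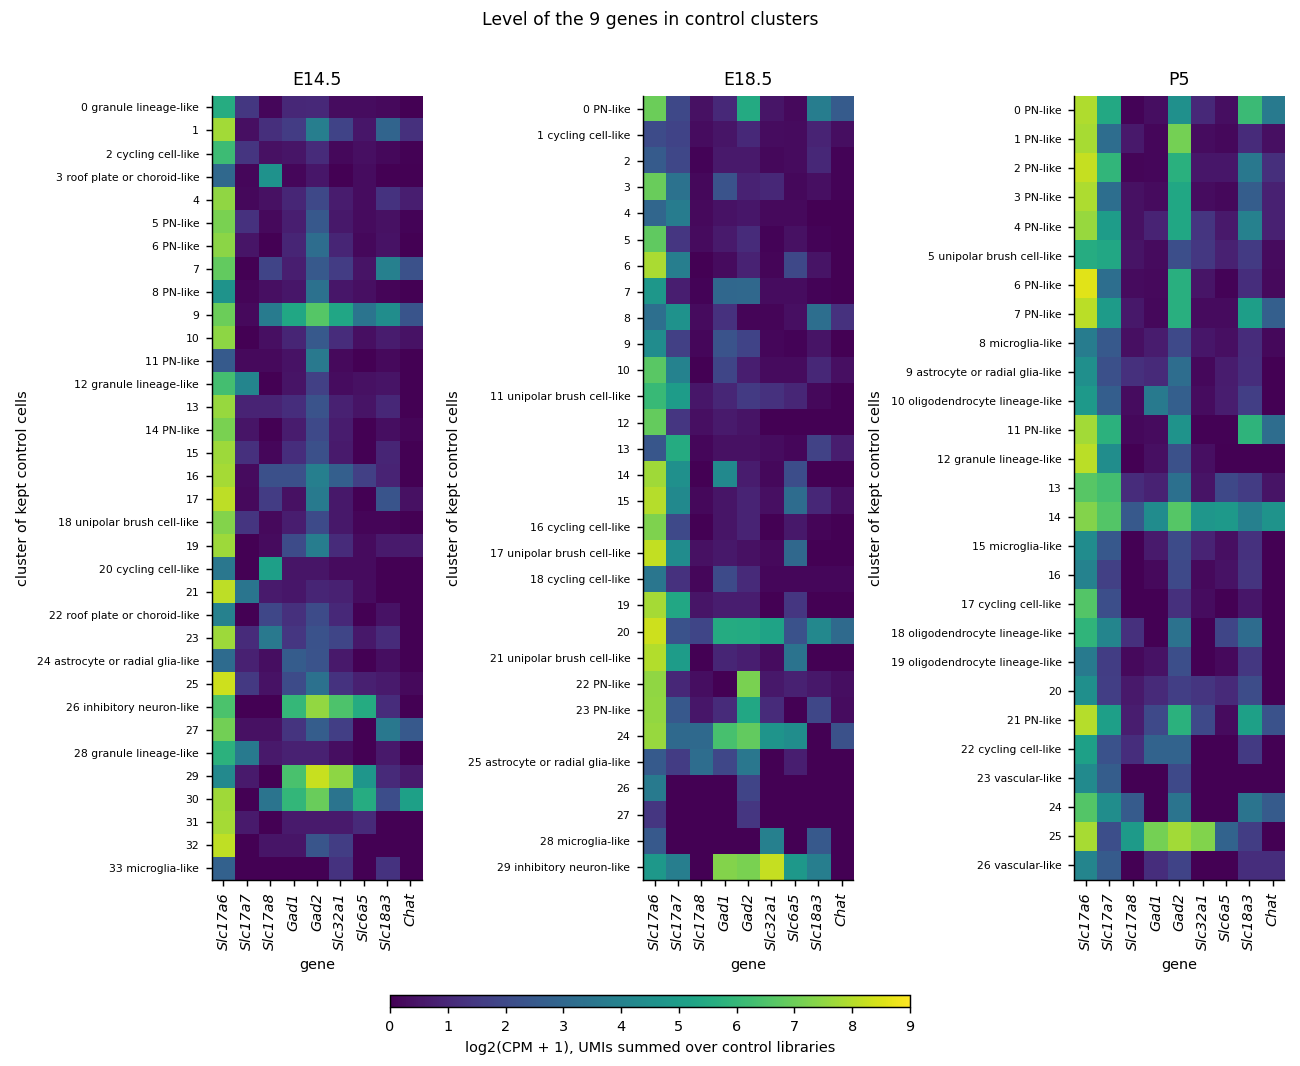
Levels of the 9 genes in the clusters of the control libraries at E14.5, E18.5 and P5, as log2(CPM + 1) of the pooled control cells of each cluster. Rows are clusters and columns are genes, and Gad1, Gad2 and Slc32a1 are high together in E14.5 clusters 26 and 29 whereas Gad2 is high without Gad1 and Slc32a1 in the PN-like clusters of E18.5 and P5.

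Among thinned cells with a UMI of a vesicular glutamate transporter, most had 1 of the 3 transporters. Of the 6810 thinned E14.5 control cells with a vesicular glutamate transporter, 6550 (96.2%) had Slc17a6 alone. At P5 it was 5685 of 7016 (81.0%), and cells with both Slc17a6 and Slc17a7 made up 0.822% of glutamate transporter cells at E14.5, 5.34% at E18.5 and 11.3% at P5. Gad2 without Gad1 or Slc32a1 accounted for 350 of 882 control cells with any of these inhibitory genes (39.7%) at E14.5, for 436 of 713 (61.2%) at E18.5 and for 1840 of 1984 (92.7%) at P5. Slc18a3 without Chat made up 138 of 184 cholinergic-gene cells at E14.5, 138 of 188 at E18.5 and 823 of 999 (82.4%) at P5, and only 14, 9 and 55 cells carried both. The embryonic libraries are whole hindbrain and the P5 libraries are dissected PN. PN-like cells were 3313 of 15838 thinned control cells at E14.5 and 8144 of 12688 at P5. Age and tissue thus cannot be told apart in these shares. At 5000 UMIs a cell that transcribes a gene at a low level is often without a UMI of it, so these are shares of cells with a UMI and not of cells that express the gene, and the intervals in shares cover counting error only.

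Co-detection was set against the number of cells given by the product of the 2 genes' shares, as a description. Gad2 and Slc17a6 met in 145 E14.5 control cells, 0.515 times the product, in 190 E18.5 control cells (1.26 times) and in 1222 P5 cells (1.27 times). Within PN-like cells the ratio was 0.851 at E14.5, 1.07 at E18.5 and 0.993 at P5, where 1191 cells carried both and 67.9% of Gad2 cells had Slc17a6. Gad2 and Slc17a6 were thus found in the same PN-like cells at between 0.851 and 1.07 times the number their shares alone give. Slc17a6 and Slc32a1 met less often, at 0.336 times the product with 45 cells at E14.5, 0.506 with 11 cells at E18.5 and 0.450 with 14 cells at P5. Gad1 and Slc32a1 met at 18.7, 37.2 and 49.4 times the product, and Gad2 and Slc32a1 at 14.6, 12.8 and 3.31 times. Slc18a3 and Chat met at 28.1 times the product at E14.5, 15.0 at E18.5 and 4.52 at P5. Pairs of genes share their cells' depth and cell kinds, and no test was run on these ratios.

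Over all kept cells the genotype test called none of the 9 genes at E14.5 and none at E18.5. Over all genes edgeR called 0% of 18825 at E14.5 and 0% of 18046 at E18.5, although 2147 and 358 genes had an unadjusted p under 0.05 and DESeq2 called 516 at E14.5. Blocking on littermates, edgeR called 13% of genes at E14.5 and 0.111% at E18.5. Slc17a8 then rose in the E14.5 mutant by 1.00 on the log2 scale (SE 0.174, blocked edgeR FDR 0.0173; 1.02, SE 0.202, FDR 0.320 without the block) and Slc17a6 fell by 0.35 (SE 0.050, blocked edgeR FDR 0.0107; FDR 0.490 without the block). Without the second littermate pair, a setting added after the data were seen and fitted with no block, the differences were 1.22 for Slc17a8 (edgeR FDR 0.257) and -0.41 for Slc17a6 (edgeR FDR 0.293). E14.5 control libraries 1 and 2 were counted with Cell Ranger 3.1.0, and all E14.5 mutant libraries with 5.0.1. Inside littermate pairs 1 and 2 version and genotype thus cannot be told apart, and the block does not separate them. The same holds for every E14.5 comparison of the genotypes that includes these control libraries. The neuronal marker Tubb3 was at 2710 to 3520 CPM in E14.5 controls and 1890 to 2730 CPM in E14.5 mutants, and its part in the Slc17a6 difference was not tested. Slc17a8 was also the 1 member whose E14.5 groups did not overlap, beside 17.2% of all genes at E14.5. At E18.5 no member separated the groups, beside 5.2% of all genes, and no member was called with the block. The E18.5 log2 differences were -0.34 for Slc17a6 (SE 0.136, edgeR FDR 1.0), 0.47 for Gad2 (SE 0.237) and 0.71 for Slc17a8. The interaction test, of the genotype effect between the stages, called none of the 9 genes, without the block or with it. It called 0% of all genes without the block (1396 at an unadjusted p under 0.05) and 8.09% with it. Without the block the interaction was -0.28 for Slc17a8 (SE 0.457), 0.03 for Slc17a6 (SE 0.241) and 0.06 for Gad2 (SE 0.382). These SEs are too wide to show that the effects were equal.

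The groups in which Slc17a8 was highest at E14.5 also held a larger share of the mutant cells. The roof plate or choroid-like cluster 3 made up 3.79, 2.85 and 2.73% of kept cells in the controls and 8.69, 7.49 and 6.33% in the mutants, and the cycling cell-like cluster 20 made up 1.02, 1.1 and 1.23% and then 2.83, 3.53 and 2.02%. All 3 mutants thus exceeded all 3 controls in both shares, as they did in the level of Slc17a8 over all cells, and the part of the shares in that level was not tested. Within cluster 20 the mutant libraries held 45.7, 18.2 and 45.6 CPM of Slc17a8, for a log2 difference of 0.06 (SE 0.354), and within cluster 3 they held 37.3, 19.7 and 37.4 CPM, for 0.43 (SE 0.329). Neither passed the test. With the block the difference in cluster 3 was 0.42 (SE 0.147, blocked edgeR FDR 0.349), and the mutant was the higher in all 3 littermate pairs. Of the 9 clusters in which Slc17a8 was tested at E14.5, 6 were higher in the mutant and 3 lower, and none passed the test.

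Gad2 was the only member called inside the PN lineage at E14.5, with the block or without it. PN-like cells were named from Hoxb2 to Hoxb5, Pax6 and Barhl1, and their states from marker lists of progenitors, intermediate progenitors, migrating and differentiated neurons that the study drew from these samples. In the migrating neuron-1-like state Gad2 was at 7.25 and 6.83 CPM in control libraries 1 and 3 and at 31.7 and 26.5 CPM in mutant libraries 1 and 3. It rose by 2.00 on the log2 scale (SE 0.198, edgeR FDR 0.00575, 2 libraries against 2, since the second pair had too few cells in this state). This was the only call among 13 tests of 5 members in the 5 E14.5 PN-like states, beside a background of 0.00986% of all tests, and it held in 11 of 11 alternative settings with a log2 change of 1.89 to 2.12. In 5 of these settings 1 arm had a single library, which was assumed to vary like the others. In that 1 state edgeR called 0.0435% of 11482 genes.

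The other 4 E14.5 states had Gad2 higher in the mutant as well, with the second pair apart from the others. In the progenitor-like state the controls held 11.2, 9.69 and 14.4 CPM and the mutants 43.2, 13.9 and 40.4 CPM, and in the migrating neuron-2-like state 5.74, 2.06 and 7.35 CPM against 42.2, 4.73 and 29.3 CPM. Without the block neither passed (log2 1.46, SE 0.444, and 2.24, SE 0.681, both at edgeR FDR 1.0). With the littermate pair as a block both rose, by 1.27 (SE 0.218, blocked edgeR FDR 0.00353) and by 2.11 (SE 0.247, blocked edgeR FDR 0.0204), and 0.515% of all tests were called. When the second pair was left out, an alternative added after the data were seen, Gad2 passed in the migrating neuron-1-like, migrating neuron-2-like (2.32, edgeR FDR 0.00329) and differentiated neuron-like states (1.67, edgeR FDR 0.0289) and not in progenitor-like cells (1.65, edgeR FDR 0.179). In the intermediate progenitor-like state the controls held 16.4, 5.56 and 17.6 CPM and the mutants 37.8, 6.19 and 33.5 CPM. In the differentiated neuron-like state they held 5.93, 3.84 and 5.63 CPM against 20.6, 1.05 and 17.8 CPM, so that the second mutant lay under its littermate there. Neither state passed, with a log2 difference of 1.09 and 1.37. In the pooled thinned PN-like cells 3.23% of 3313 control cells had a Gad2 UMI (Wilson interval 2.68 to 3.89%) against 10.2% of 3999 mutant cells (9.28 to 11.2%). Single mutant libraries lay between 2.71 and 13.0%, the lowest of them under the pooled control share. The intervals cover counting error in the pooled cells and not the spread between embryos, and these shares were not tested. The makeup of the PN-like cells differed too: progenitor-like cells were 2.12, 1.78 and 1.22% of kept cells in controls and 7.37, 4.60 and 7.61% in mutants. The Gad2 levels of each state are per cell group and are not summed over these shares.

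At E18.5 Gad2 was called in no PN-like state without the block, beside a background of 0.0286%, and in 3 of 4 states with it, beside 0.268%. In the ePN1-like state the controls held 15.3, 16 and 9.78 CPM and the mutants 69.5, 37.7 and 19.3 CPM, a difference of 1.72 (SE 0.341, edgeR FDR 0.202) that rose by 1.57 with the block (SE 0.250, blocked edgeR FDR 0.000717). In the ePN2-like state the controls held 21.2, 30.3 and 17.0 CPM and the mutants 39.7, 43.0 and 29.5 CPM, for 0.75 without the block (edgeR FDR 1.0) and 0.74 with it (blocked edgeR FDR 0.00907). In the ePN3-like state they held 38.8, 31.0 and 35.5 CPM against 54.5, 47.6 and 65.1 CPM, for 0.67 under both fits (edgeR FDR 0.604, blocked FDR 0.0362). In each of these 3 states the mutant of every littermate pair was the higher. The migrating neuron-like state, where Gad2 was far higher, did not show a difference past the spread: 214, 144 and 178 CPM in controls against 228, 170 and 175 CPM in mutants, for a log2 difference of 0.10 (SE 0.126). A Gad2 UMI was found in 53.2% of 331 control and 53.1% of 305 mutant migrating neuron-like cells. In ePN1-like cells it was found in 5.56% of control and 18.4% of mutant cells, and in PN-like cells of all states in 21.1% and 28.9%. These shares pool the libraries and were not tested. The ePN1-like state held 71, 97 and 193 control cells and 51, 30 and 67 mutant cells. That was 1.33, 1.9 and 3.95% of kept cells in controls and 0.657, 0.749 and 1.42% in mutants. The part of this makeup in the pooled shares and in the ePN1-like levels was not tested. Gad1 was at or under 4.72 CPM, and Slc32a1 at or under 7.04 CPM, in every PN-like state of every library. Gad1 had counts enough for a test in 1 PN-like state, the E14.5 migrating neuron-2-like one. There it was higher in the mutant by 1.41 on the log2 scale (SE 0.709), which did not pass (blocked edgeR FDR 0.679). Slc32a1 was tested in none of the PN-like states.

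**Figure D3:**
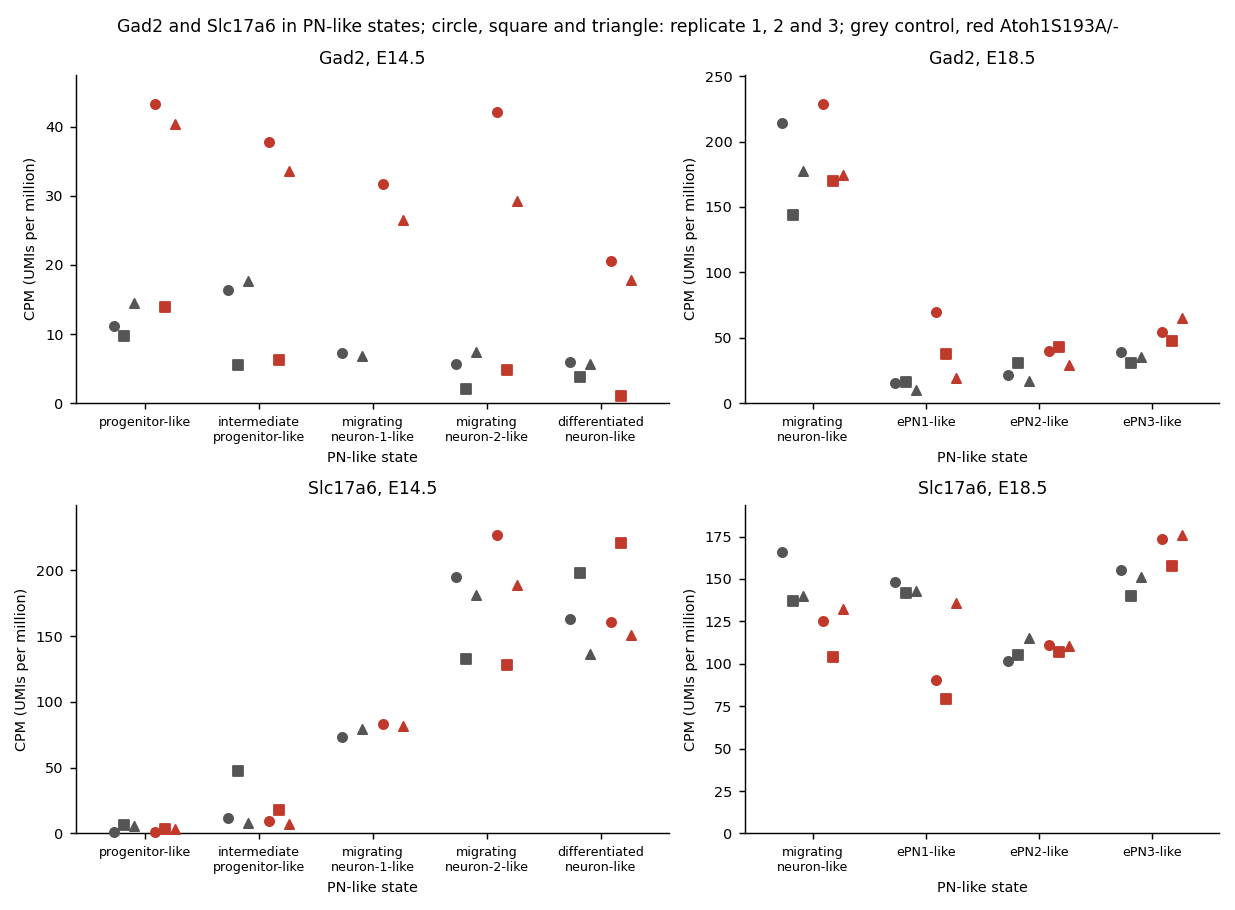
Gad2 (upper panels) and Slc17a6 (lower panels) in the PN-like states of E14.5 and E18.5, in CPM per library, controls in grey and mutants in red, with circle, square and triangle for littermate pairs 1, 2 and 3. The mutant Gad2 points of pairs 1 and 3 lie above their littermates in each E14.5 state, those of pair 2 lie low, and the E18.5 migrating neuron-like state holds the highest Gad2 levels with the genotypes overlapping.

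Slc17a6 did not pass the test in any PN-like state. Its level differed more between states than between genotypes: in E14.5 controls it was at 1.40 to 6.20 CPM in the progenitor-like state and at 7.92 to 47.5 CPM in the intermediate one. It was at 73.5 and 79.2 CPM in migrating neuron-1-like cells, at 133 to 195 CPM in migrating neuron-2-like cells and at 136 to 198 CPM in differentiated neuron-like cells. In differentiated neuron-like cells the mutants held 161, 221 and 151 CPM, for a log2 difference of 0.05. The log2 difference was 0.04 and 0.08 in the migrating states, -0.80 in the progenitor-like state (SE 0.563) and -1.06 in the intermediate one (SE 0.610, edgeR FDR 1.0, blocked 0.142), where the mutants held 9.32, 18.2 and 7.32 CPM. At E18.5 the ePN1-like state held 148, 142 and 143 CPM in controls and 90.7, 79.3 and 136 CPM in mutants (log2 -0.42, SE 0.145, edgeR FDR 0.859, blocked 0.286), and the migrating neuron-like state 166, 137 and 139.7 CPM against 125, 104 and 132 CPM (log2 -0.29, edgeR FDR 0.536, blocked 0.176). Neither difference passed under either fit. In ePN2-like cells the difference was 0.00 and in ePN3-like cells it was 0.16.

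Outside the PN lineage Slc17a6 fell in 2 of 22 E18.5 clusters tested and in none of 23 at E14.5. In cluster 5, led by Nts, Neurod4, Mgarp, Hist1h1a and Mybpc1, the controls held 109.9, 114 and 112 CPM and the mutants 76.6, 64.8 and 71.6 CPM. Slc17a6 fell there by 0.67 (SE 0.0844, edgeR FDR 0.00485), a call kept in 12 of 12 alternative settings, where edgeR called 0.178% of the genes of that cluster. In the cycling cell-like cluster 16 (Tuba1c, Cdc20, Nts, Cenpa and Ube2c) the controls held 144, 139.8 and 176 CPM and the mutants 100.9, 81.5 and 93.2 CPM, a fall by 0.75 (SE 0.113, edgeR FDR 0.0331), where 0.135% of genes were called. That call was kept in 7 of 12 settings and lost without any 1 of control replicates 1, 2 and 3 or mutant replicates 2 and 3, with an FDR of up to 0.135 and a log2 change of -0.82 to -0.61. Slc17a6 was lower in the mutant in 18 of the 22 clusters, with a median log2 difference of -0.25, whereas at E14.5 it was higher in 11 and lower in 12 of 23. Clusters of 1 stage come from the same embryos, so counts of signs over clusters, here and below, are not independent. They were not set against all genes.

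Over the 70 tests of members in E18.5 clusters these were the 2 calls, beside a background of 0.105% of all tests. With the littermate pair as a block there were 8 calls, 3 higher and 5 lower, beside 0.563% of all tests. They added Slc17a6 in cluster 12 (Ttr, Nts, Rassf9, Gm4792 and Barx2), at 125, 101.3 and 117 CPM in controls and 82.2, 50.2 and 87.9 CPM in mutants, which fell by 0.67 (blocked edgeR FDR 0.00433, 0.165 without the block). They also added Slc17a6 in cluster 7 (Pmaip1, Fgf8, Hes5, Thrsp and Tlx3), at 33.4, 28.3 and 15.9 CPM against 16.4, 9.41 and 12.6 CPM, which fell by 1.08 (blocked edgeR FDR 0.00775, 0.114 without the block). Among the 84 member tests in E14.5 clusters there was no call, beside 0.00746% of all tests, and 1 call with the block, beside 0.219%. That was Slc17a6 in the roof plate or choroid-like cluster 22 (Ttr and Kcne2), at 13.0, 16.5 and 13.6 CPM in controls and 1.03, 4.34 and 5.03 CPM in mutants, which fell by 1.78 (blocked edgeR FDR 0.0481). With no block and without the second pair the difference was -1.66 and did not pass.

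**Figure D4:**
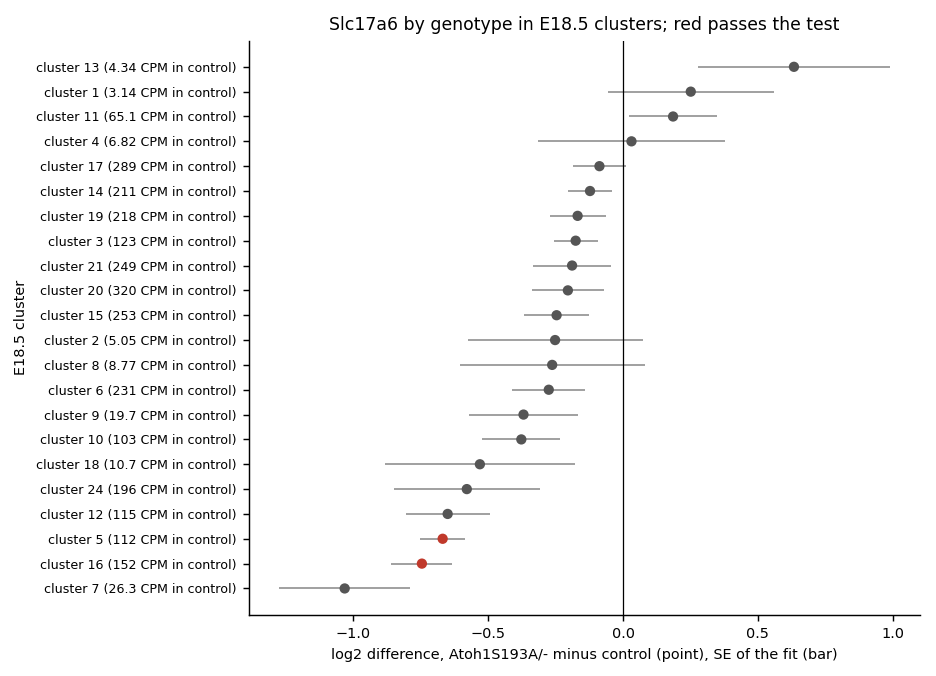
Log2 difference of Slc17a6 between mutant and control in each of the 22 E18.5 clusters tested, outside the PN-like groups, with its SE, from edgeR without the block. Clusters 5 and 16, in red, passed the test, and 18 of the 22 points lie under 0, although the clusters share their embryos and are not independent.

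In 1 E18.5 cluster, cluster 9, Gad2 rose and Gad1 fell with the littermate block, and neither passed without it. In this cluster, led by Fgf8, Tlx3, Hist1h3c, Hist1h1b and 4631405J19Rik, Gad2 was at 4.18, 1.49 and 1.54 CPM in controls and 7.6, 6.63 and 6.93 CPM in mutants, while Gad1 was at 4.18, 2.77 and 4.80 CPM and then at 0.950, 0.856 and 0.99 CPM. How many other genes of this cluster separate the genotypes as these values do was not computed, so nothing is read from it. In the pooled mutant cells of this cluster 2 UMIs of Chat came to 0.124 CPM, so the mutant Gad1 levels rest on few UMIs. With the block Gad2 rose by 1.46 (blocked edgeR FDR 0.00871, 0.179 without the block) and Gad1 fell by 2.05 (SE 0.404, blocked edgeR FDR 0.00731, 0.0737 without the block). In cluster 7 Gad2 was at 7.85, 7.27 and 6.26 CPM in controls and 19.9, 12.2 and 11.3 CPM in mutants and rose by 1.01 with the block (blocked edgeR FDR 0.0224, 0.0969 without the block). Gad1 was there at 6.84, 4.60 and 9.39 CPM against 2.46, 4.07 and 3.05 CPM, for -1.16 (edgeR FDR 0.262). In the cycling cell-like cluster 18, with Cdc20, Cenpa and Ccnb2, Gad2 was at 1.29, 0.756 and 1.14 CPM against 4.83, 5.42 and 6.11 CPM and rose by 2.25 with the block (blocked edgeR FDR 0.0159, 0.0541 without the block). That value rests on 5, 2 and 3 UMIs in controls and 28, 16 and 12 in mutants. Over the 8 clusters in which each was tested Gad2 was higher in the mutant in 7, with a median log2 difference of 0.86, and Gad1 was lower in 6, with a median of -0.72. Slc17a7 was higher in 8 and lower in 11 of 19 clusters, Slc18a3 was lower in 4 of 4, and Slc6a5 and Chat were -1.86 and -1.36 in cluster 20, none of them past the test.

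At P5 the 6 PN-like states, named PN1-like to PN6-like from marker lists, shared Slc17a6 and differed in what they carried beside it. Slc17a6 was at 206 to 277 CPM in library 1 and 232 to 324 CPM in library 2, and was the higher in library 2 in all 6 states. Its states were in nearly the same order in both libraries, with PN4-like cells highest (277 and 324 CPM) and PN6-like cells lowest (206 and 232 CPM). Gad2 was highest in PN3-like cells, at 110.4 and 106 CPM, then in PN4-like (54.8 and 46.9 CPM) and PN2-like cells (48.2 and 52.1 CPM), whose order differed between the libraries. PN5-like cells held 38.8 and 41.4 CPM, and the lowest levels were in PN6-like (24.1 and 22.7 CPM) and PN1-like cells (21.7 and 22.2 CPM).

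The cholinergic genes had a different order. Slc18a3 was at 64.4 and 77.9 CPM in PN1-like, 51.4 and 64.6 CPM in PN6-like, 28.9 and 37.5 CPM in PN2-like, 10.8 and 11.7 CPM in PN4-like, 4.73 and 5.95 CPM in PN5-like and 1.56 and 0.803 CPM in PN3-like cells. PN3-like cells, the highest in Gad2, were thus the lowest in Slc18a3 in both libraries. Chat followed, with 12.3 and 11.9 CPM in PN1-like, 7.80 and 9.29 CPM in PN6-like, 5.37 and 5.89 CPM in PN2-like and 0.293 and 0.191 CPM in PN3-like cells. Slc17a7 was at 58.5 and 62.5 CPM in PN4-like, 53.0 and 57.1 CPM in PN6-like, 42.1 and 41.4 CPM in PN1-like, 32.3 and 24.6 CPM in PN2-like, 11.2 and 4.71 CPM in PN5-like and 8.13 and 8.68 CPM in PN3-like cells. Gad1 reached 0.470 CPM, Slc32a1 2.51 CPM and Slc6a5 0.759 CPM at most in any of these states. After thinning, a Gad2 UMI was found in 36.5% of 2118 PN3-like cells (34.4 to 38.5%, Wilson interval) and in 11.4% of PN1-like cells, and a Slc18a3 UMI in 481 of 1655 PN1-like cells (29.1%) and in 14 of 2118 PN3-like cells (0.661%). The 2 microglia-like P5 clusters, in which none of these genes is expected, gave 1.53 and 0.833% for Gad2, 0.510 and 0.417% for Slc18a3, 2.72 and 2.92% for Slc17a7 and 6.46 and 8.75% for Slc17a6 at median depths of 10748 and 9078.5 UMIs, so the Slc18a3 share of PN3-like cells is near background and its share of PN1-like cells is not. A Slc17a6 UMI was found in 62.6 to 75.1% of the cells of the 6 states.

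**Figure D5:**
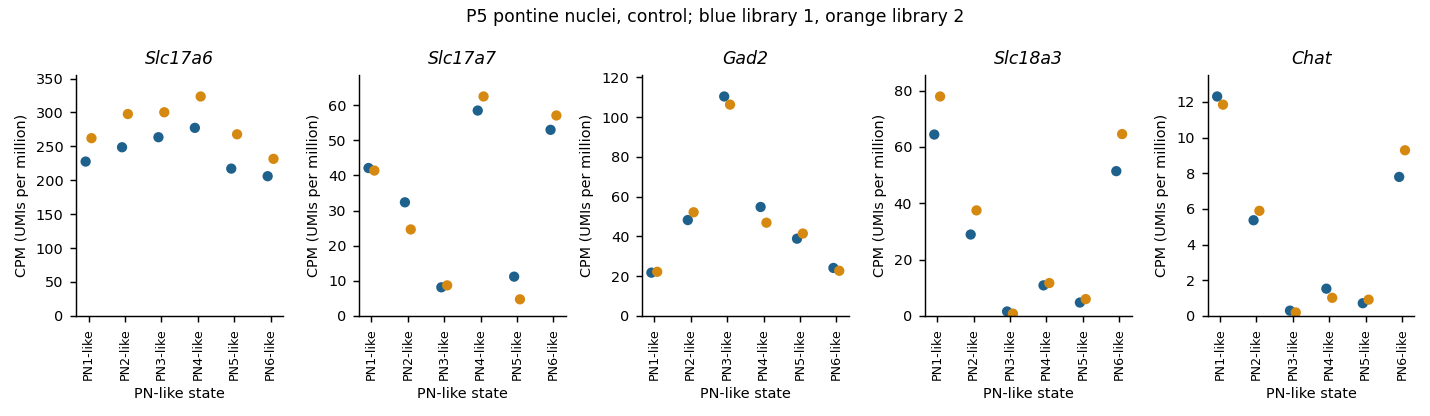
Slc17a6, Slc17a7, Gad2, Slc18a3 and Chat in the 6 PN-like states of the 2 P5 libraries, in CPM, library 1 in blue and library 2 in orange. Gad2 is highest and Slc18a3 and Chat are lowest in PN3-like cells in both libraries, and Slc17a6 is above 200 CPM in all 6 states.

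Gad2 and Slc18a3 met in 97 P5 PN-like cells, 0.528 times the product of their shares, and within PN1-like cells alone the ratio was 0.932. Slc17a6 and Slc18a3 met in 560 PN-like cells, 0.957 times the product, and 65.6% of Slc18a3 cells had Slc17a6. The cholinergic genes were also found in a PN-like state before birth. In ePN2-like cells at E18.5 Slc18a3 was at 28.5, 22.1 and 41.2 CPM in controls and 35.4, 35.8 and 40.4 CPM in mutants (log2 difference 0.18, not past the test), and Chat was at 5.17, 7.72 and 18.3 CPM against 10.5, 12.2 and 9.04 CPM (-0.27). The genotypes overlapped for both genes. In ePN1-like cells Slc18a3 was at or under 0.67 CPM in each library.

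The share of cells with each transmitter did not pass the test in any of 9 measures at either age, with limma on the logit of the share. Cells with a vesicular glutamate transporter were 42.0% ± 4.86 (SD, n = 3) of thinned E14.5 control cells and 35.8% ± 5.41 of mutant cells (limma FDR 0.865, exact permutation p = 0.2). At E18.5 they were 34.5% ± 0.775 and 29.3% ± 4.21 (limma FDR 0.879, exact permutation p = 0.1, the smallest that 3 against 3 allows). Cells with Gad2 were 4.41% ± 1.12 and 6.01% ± 1.24 at E14.5 and 3.26% ± 0.798 and 4.16% ± 0.981 at E18.5 (exact permutation p = 0.3 at both ages). Cells with a glutamate transporter and Gad2 but neither Gad1 nor Slc32a1 were 0.727% and 0.935% at E14.5 and 1.30% and 1.35% at E18.5, and cells with a glutamate transporter and Slc32a1 were 0.269% and 0.221%, and 0.0974% and 0.113%. Most embryonic cells had a UMI of none of the 9 genes, 52.8% and 57.6% at E14.5 and 62.0% and 66.4% at E18.5. At P5 the 2 libraries had 54.1 and 57.2% of cells with a glutamate transporter (70.7 and 72.8% before thinning), 15.2 and 14.3% with Gad2 (34.8 and 34.3% before thinning), and 9.94 and 10.0% with both.

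Of 46 further genes of transmitter pathways, which cover glutamine and glutamate metabolism, reuptake, acetylcholine breakdown, monoamines and the vesicle proteins, 45 were measured over all cells. None passed the genotype test at E14.5 (median log2 difference -0.11, beside 0.01 over all genes) or at E18.5 (0.02, beside 0.00). With the block, which called 13% of all genes, 4 of the 45 rose at E14.5, among them the glial glutamate transporter Slc1a3 (0.90) and the histamine enzyme Hdc (1.32), and 8 fell, among them the vesicle release proteins Snap25 (-0.41), Syp (-0.40) and Vamp2 (-0.33). Among 589 tests of these genes in E18.5 clusters 1 fell and 1 rose without the block, beside 0.105% of all tests called. Snap25 fell by 1.03 in cluster 26 and Slc1a2, another glutamate reuptake gene, rose by 0.76 in cluster 7. Between the stages 11 of the 45 rose and 14 fell in controls, beside 20.4% and 23.2% of all genes. Sv2b, a synaptic vesicle protein, rose by 1.22 and the choline transporter Slc44a1 by 1.56, and the monoamine genes Th, Slc6a4 and Ddc fell by 4.59, 3.63 and 2.23. Of 17 transcription factors of inhibitory neurons 14 fell between the stages and 1, Lhx1, rose, and of 14 of excitatory neurons 4 rose and 8 fell, beside the same 20.4% and 23.2%. None of the 17 or the 14 passed the genotype test over all cells without the block. With it 2 of the 17 rose at E14.5 (Dlx1 by 1.58 and Tfap2a by 0.62) and 6 of the 14 fell (Barhl1, Lhx2, Tbr1, Neurod1, Neurod6 and Neurod2), beside 13% of all genes, and none passed at E18.5. Within groups of cells Barhl1, one of the genes by which PN-like cells were named, fell by 2.32 in the E14.5 progenitor-like state and Lhx2 by 2.19 in the E18.5 migrating neuron-like state, and Pou4f1 rose by 1.58 and 2.04 in E18.5 clusters 5 and 16, the clusters in which Slc17a6 fell. The calls within groups of cells are from the edgeR fit without the block. For the excitatory factors 1 of 52 tests was called in E14.5 PN-like states and 1 of 33 in E18.5 ones. Among 203 tests in E18.5 clusters 3 rose and 5 fell. The backgrounds were 0.00986%, 0.0286% and 0.105% of all tests. In the E18.5 migrating neuron-like state Pax2, a transcription factor of inhibitory neurons, fell by 6.46 (SE 1.00, edgeR FDR 0.0224). It was the 1 call among 8 tests of these factors in the E18.5 PN-like states, beside 0.0286% of all tests. Its levels per library are not given here, and a log2 change of that size can rest on a few UMIs in 1 group.

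Across the 88 control clusters of the 3 stages the pattern of each gene was compared with that of 13181 genes by Pearson's r of log2(CPM + 1). Slc32a1 was most like Gm27199 (0.922), Slc30a3 (0.859) and Skor1 (0.826), and Gad1 was most like Slc32a1 (0.825). Gad2 was closest not to Gad1 or Slc32a1 but to Kcna4 (0.811), Cntnap5a (0.785) and Pax2 (0.758). Slc18a3 and Chat were at 0.763, which made Chat the first in likeness to Slc18a3 and Slc18a3 the second to Chat, after Rgs11 (0.767). Slc17a6 was most like Vash2 (0.818), Cacna2d1 (0.789) and Celf6 (0.777), Slc17a7 like Fat2 (0.831), Tuba4a (0.796) and Cpne9 (0.796), Slc17a8 like Hs2st1 (0.655), Gdpd2 (0.622) and Ldb2 (0.609), and Slc6a5 like Slc30a3 (0.780), Pax8 (0.743) and Slc32a1 (0.718). Among the glutamate transporters r was 0.20 between Slc17a6 and Slc17a7, 0.01 between Slc17a6 and Slc17a8 and -0.18 between Slc17a7 and Slc17a8. Clusters of 1 stage share libraries and depth, so these values are descriptions with no test. The shallow E14.5 cluster 30, left out of the orders above, was kept here. It held the highest pooled Chat level, 33.62 CPM from 10 UMIs.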

How the data were processed

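TdTomato-positive cells were sequenced with 10x Genomics 3′ chemistry, and the deposited matrices hold raw UMI counts per gene and cell that the authors made with Cell Ranger on mm10; the file headers give version 3.1.0 for E14.5 control replicates 1 and 2 and version 5.0.1 for the others. Barcodes with at least 1000 genes and under 5% mitochondrial UMIs were kept and the top 7.5% by Scrublet score were removed. Each stage was clustered with scanpy 1.11.5 and leidenalg 0.10.2 (2000 variable genes, 30 components, 15 neighbours, resolution 1.0), with the 9 genes, pathway, sex-linked, mitochondrial and reporter genes left out. Names with -like come from marker lists and may differ from the study's own clusters. Of 150188 barcodes 80250 were kept. 2775 of these had fewer than 5000 UMIs and were left out of thinned shares.

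Counts were summed per library and group of cells with at least 10 cells per library, genes with a summed count under 30 were left out, and sums were tested with edgeR 4.0.16 quasi-likelihood fits over all genes, with Benjamini-Hochberg adjustment within each fit. A gene was called at FDR under 0.05 and an absolute log2 change over 0.25. Shares were tested with limma 3.58.1 on the logit, 0.5 cells added, and with an exact two-sided permutation test. The protocol in the labels gives each mutant a littermate control without naming the pairs, and the 6 same-number pairs deviated together over genes (r 0.578 to 0.861, against -0.659 to 0.332 for the other 12 pairs), so equal numbers were taken as littermates and a fit with the pair as a block is given where it changes a call. On data made with known changes the E18.5 fit over all cells recovered 27 of 67 genes changed 1.5-fold, 51 of 67 changed 2-fold and 65 of 66 changed 4-fold.

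The 9 genes were named in full, pathway genes as counts with those past the test named, and the 3 genes most alike per member by r, among genes at 20 CPM or more in a cluster. The members and lists were chosen with earlier results of these data known. The alternatives were DESeq2 1.42.0, no low-count filter, 10% mitochondrial UMIs, other doublet and depth limits, libraries of Cell Ranger 5.0.1 only, the replicate block and leaving out each library. Sequences and loci are from RefSeq (GRCm38.p6) and GENCODE M21.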

Additional observations from a re-analysis of the deposited data

How the results depend on the processing

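Of 735 alternative values for single genes 687 stayed on their side of the test, 10 lost the call, 38 gained it and none of the called ones reversed. Among values that were not called 77 changed sign. The number of member calls depended most on the littermate pair as a block and on the filter of low counts. At E14.5 the PN-like states had 1 call, and 3 with no filter, 3 with the replicate block and 3 without the second littermate pair (1 to 3 when a library was left out, 3 without mutant replicate 2). The other E14.5 clusters had 0 calls, and 1 with no filter and 1 with the replicate block (0 to 0 with a library left out), and all kept cells had 0, 1 with DESeq2 and 2 with the replicate block (0 to 0). At E18.5 the PN-like states had 0 calls, and 3 with no filter and 3 with the replicate block (0 to 1 with a library left out, 1 without mutant replicate 3). The other E18.5 clusters had 2 calls, and 4 with DESeq2, 10 with no filter and 8 with the replicate block (1 to 2 with a library left out, 1 without mutant replicate 2, mutant replicate 3 or control replicate 2). The stage comparison had 4 calls, 2 when a gene needed a UMI in 10% of cells and 3 to 5 with a library left out. All kept cells at E18.5, the interaction and the shares had 0 in each setting. Where a filter or the block changed a count the cause was not tested. Over all genes the block raised the calls at E14.5 from 0 to 2453. At 5000 UMIs per cell a gene at a few CPM is seen in a small part of its cells, which limits the co-detection of Gad1, Slc32a1, Slc6a5 and Chat most, and the E14.5 migrating neuron-1-like result rests on 4 libraries.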

Other observations

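A small inhibitory neuron-like group at E18.5, cluster 29, had 40 cells of which 9 were from controls, too few per library for a test. Mutant libraries 2 and 3 held 291 and 385 CPM of Gad1 and 380 and 305 CPM of Slc32a1 there, and Slc17a6 was at 0 in both.

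In the E14.5 mutants 249 of 6510 cells with a glutamate transporter (3.83%) had Slc17a8 alone, beside 103 of 6810 (1.51%) in the controls, pooled over libraries and not tested. Slc17a8 within the E14.5 progenitor-like state was carried by 1 library: mutant replicate 3 had 30 UMIs, mutant replicates 1 and 2 had 5 and 1, and the 3 controls had 1 in all.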
